A study of Mus musculus with 2 samples.

Results

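Gene desert sites were the peaks of open chromatin that lay far from any gene in sorted mouse motor neurons. A peak entry was counted as a desert entry when its summit, the base with most reads, lay on chromosomes 1 to 19, outside every protein-coding gene and more than 100 kb from the nearest end of one. By this rule 20458 of 138387 entries were desert entries. That was 15.2% of the 134427 entries on chromosomes 1 to 19 (95% exact binomial interval 15.03 to 15.41%, counting error only). Entries can share an interval, and the 20458 desert entries lay in 16743 intervals. The 1 group of the study holds 2 replicates of spinal motor neurons, so labelled, which FACS had purified as GFP+ cells; the donors were Hb9::GFP mice on C57/Bl6, taken as embryos at e10.5. Hb9 is an older name of Mnx1, and its regulatory sequence drives GFP in this line, so the sort takes any cell in which that sequence is active. Whether the replicates came from separate litters is not stated. Chromatin was profiled by ATAC-seq, in which the Tn5 transposase cuts accessible DNA, with paired 75-nt reads after 8 to 9 PCR cycles. The peak list pooled both replicates, so no value below has a replicate error, no comparison has a test, and classes of entries share 1 pool of reads.

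Gene deserts are long stretches of a chromosome without protein-coding genes. Many flank genes that control development, and known enhancers within them act on a flanking gene over long distances. Enhancers are short sequences bound by transcription factors, and ATAC-seq marks them, promoters and other open sites alike. Which gene a distal site acts on cannot be read from its position, so the flanking genes below are neighbours and nothing more. The transcription factors of motor neurons include the LIM homeodomain proteins Isl1 and Lhx3, the homeodomain protein Nkx6-1, and Onecut and Ebf factors.

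The deserts held microRNA genes, the starts of long non-coding RNA (lncRNA) genes, and immunoglobulin gene segments. Some of the microRNAs near desert summits, or in the densest deserts, are shown first, since they give these deserts a gene content that a count of protein-coding genes misses. They were picked from a larger set, and others as near or in such deserts are not printed. Each mature sequence is from RefSeq (GRCm38.p6), and capitals mark the seed, bases 2 to 8, which pairs with target transcripts.
miR-137-3p: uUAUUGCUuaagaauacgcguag
miR-344-5p: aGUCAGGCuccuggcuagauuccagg
miR-344c-5p: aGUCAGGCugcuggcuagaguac
miR-344-3p: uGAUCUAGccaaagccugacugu
miR-344c-3p: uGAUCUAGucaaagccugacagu
miR-99a-5p: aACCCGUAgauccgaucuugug
miR-100-5p: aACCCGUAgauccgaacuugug
miR-125b-5p: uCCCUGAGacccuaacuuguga
let-7c-5p: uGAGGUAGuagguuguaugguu
miR-205-5p: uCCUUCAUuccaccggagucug
miR-99a-5p and miR-100-5p had the same seed, ACCCGUA, and came from different deserts. miR-344-5p and miR-344c-5p had the seed GUCAGGC, which 6 mature desert sequences of the miR-344 family shared. The 3p strands miR-344-3p and miR-344c-3p shared a second seed, GAUCUAG.

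The lncRNA starts below were chosen after their values were seen, from starts whose window overlapped a desert interval. They show the range from a start rich in CG pairs to starts poor in them. Each is 300 bases, from 250 before to 50 after the RefSeq start, on the strand of the gene. In the first pair, capitals mark CG pairs. 5730522E02Rik lies at chr11:26210527-26210826 on the minus strand, in the desert between Bcl11a and Fancl, and Mir99ahg lies at chr16:77329078-77329377 on the plus strand, between Usp25 and Cxadr.
5730522E02Rik: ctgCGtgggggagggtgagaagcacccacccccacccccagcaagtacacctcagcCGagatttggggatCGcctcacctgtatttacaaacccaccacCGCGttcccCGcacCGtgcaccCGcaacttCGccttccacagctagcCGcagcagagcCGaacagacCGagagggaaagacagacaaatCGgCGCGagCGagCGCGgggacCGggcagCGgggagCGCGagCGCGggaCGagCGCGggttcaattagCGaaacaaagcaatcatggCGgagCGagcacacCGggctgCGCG
Mir99ahg: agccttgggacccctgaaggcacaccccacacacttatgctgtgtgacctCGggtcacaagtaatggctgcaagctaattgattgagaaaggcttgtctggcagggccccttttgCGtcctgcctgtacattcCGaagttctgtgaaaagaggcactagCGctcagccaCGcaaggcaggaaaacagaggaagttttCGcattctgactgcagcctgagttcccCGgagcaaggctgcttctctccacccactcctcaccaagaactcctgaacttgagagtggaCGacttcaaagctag
In the next set, capitals mark letters that homeodomain proteins (TAATTA), neuronal basic helix-loop-helix factors (CAGATG) or AP-1 (TGANTCA) are known to bind. Gm31946 lies at chr13:78426735-78427034 on the plus strand, between Nr2f1 and Arrdc3. Gm52725 lies at chr4:28143104-28143403 on the plus strand, between Manea and Epha7, and Gm52623 lies at chr3:34266696-34266995 on the minus strand, between Dnajc19 and Sox2.
Gm31946: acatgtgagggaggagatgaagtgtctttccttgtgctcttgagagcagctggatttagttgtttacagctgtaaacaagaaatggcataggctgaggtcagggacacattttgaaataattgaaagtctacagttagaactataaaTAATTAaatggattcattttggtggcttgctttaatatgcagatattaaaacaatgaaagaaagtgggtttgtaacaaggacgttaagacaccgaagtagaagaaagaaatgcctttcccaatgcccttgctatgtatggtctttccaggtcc
Gm52725: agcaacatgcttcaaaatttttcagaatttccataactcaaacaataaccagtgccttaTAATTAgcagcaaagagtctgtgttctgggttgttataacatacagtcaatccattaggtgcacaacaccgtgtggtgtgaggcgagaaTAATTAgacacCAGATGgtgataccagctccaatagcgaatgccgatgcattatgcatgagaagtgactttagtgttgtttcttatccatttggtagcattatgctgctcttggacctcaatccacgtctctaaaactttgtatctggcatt
Gm52623: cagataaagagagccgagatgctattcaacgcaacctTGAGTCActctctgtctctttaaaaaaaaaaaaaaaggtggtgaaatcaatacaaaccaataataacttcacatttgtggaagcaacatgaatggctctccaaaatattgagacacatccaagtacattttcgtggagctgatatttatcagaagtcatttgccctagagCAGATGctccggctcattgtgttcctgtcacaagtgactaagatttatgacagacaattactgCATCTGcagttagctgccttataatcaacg

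Desert sequence held open sites at a lower density than the rest of the genome, and the density went on falling with distance from a gene. A desert was taken as the sequence between 2 neighbouring protein-coding genes that lay more than 100 kb from both, named by these genes in order of coordinate. There were 1376 such deserts on chromosomes 1 to 19, with 655 Mb of sequence and 20219 entries. The other 239 desert entries lay beyond the first or last gene of a chromosome, or in stretches that begin within 3 Mb of a chromosome start, and were not ranked. The deserts held 30.9 entries per Mb (exact Poisson interval 30.4 to 31.3), against 55.9 per Mb over all sequence between the first and last gene, a ratio of 0.553. They made up 27.3% of that sequence. At 100 to 200 kb from a gene there were 38.4 entries per Mb, at 200 to 500 kb 32.8, at 500 to 1000 kb 23.0, and beyond 1000 kb 17.2 (exact Poisson interval 16.2 to 18.3). Nearer than the rule, density was 219 per Mb within 1 kb of a gene end outside genes, 53.2 at 1 to 10 kb, 48.1 at 10 to 50 kb and 43.2 at 50 to 100 kb. The median distance of a desert entry from a gene was 257 kb and the greatest 2256 kb. Entries on either side of the 100 kb limit were alike in strength: 1077 lay at 100 to 110 kb with medians of 20 reads at the summit and 2.98-fold over local background, and 1182 at 90 to 100 kb with medians of 20 reads and 3.12-fold. Just inside the rule were an entry between Car2 and Gm9733 at 100.01 kb, with 40 reads, and one between Oxgr1 and Mbnl2 at 100.01 kb, with 24 reads. Just outside it were an entry between Nek10 and Lrrc3b at 99.99 kb, with 51 reads, and one between Cbln4 and Mc3r at 99.99 kb, with 64 reads. Repeats and assembly gaps, in which reads cannot be placed, count as desert sequence here, and their part in these densities was not tested.

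**Figure D1:**
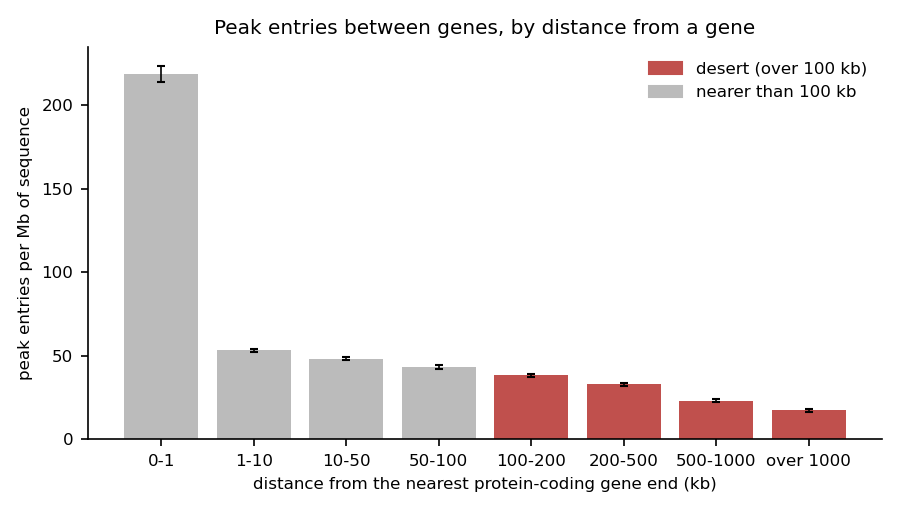
Peak entries per Mb of sequence outside protein-coding genes (y axis), by distance from the nearest gene end in kb (x axis); bars are counts over sequence length, whiskers are exact Poisson 95% intervals, and red bars are deserts. Density goes from 38.4 per Mb at 100 to 200 kb to 17.2 per Mb beyond 1000 kb.

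Desert entries were about as strong as other sites between genes and weaker than sites at gene ends. Strength is given as reads at the summit, recovered from the deposited values, and as the authors' fold of those reads over the local background. The median desert entry had 19 reads (quartiles 14 and 32) and 2.98-fold (2.36 and 4.56). Entries 10 to 100 kb from a gene had 21 reads and 2.98-fold, entries inside genes 21 reads and 2.86-fold, and entries within 1 kb of a gene end 65 reads and 5.49-fold. Desert intervals had a median width of 320 bp, against 345 bp at 10 to 100 kb and 946 bp at gene ends. Of desert entries, 79.2% had a q-value, the deposited adjusted p-value, below 0.05 (exact binomial interval 78.6 to 79.8%), against 82.1% of all entries on these chromosomes and 93.4% at gene ends. Entries with 100 reads or more were 764 of 20458 in deserts (3.73%), against 8.66% of all entries. Their share was 31.3% at gene ends, 3.99% inside genes, 3.23% at 1 to 10 kb and 2.91% at 10 to 100 kb. The local background was at the lowest level, 5.37 reads, for 72.5% of desert entries, 58.0% at 10 to 100 kb and 8.63% at gene ends. A lower background gives a higher fold at equal reads, and its part in these folds was not tested.

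A small group of desert entries stood far above the rest. Entries of 20-fold or more, a limit set after the values were seen, numbered 176 in deserts (0.860%, exact binomial interval 0.738 to 0.997%), against 0.300% of all entries. Their share was 0.412% at 10 to 100 kb, 0.204% at 1 to 10 kb, 0.188% inside genes and 0.00819% at gene ends. By distance from a gene, the share was 0.392% at 10 to 50 kb, 0.459% at 50 to 100 kb and 0.620% at 100 to 200 kb. It was 0.717% at 200 to 500 kb, 1.37% at 500 to 1000 kb and 2.12% beyond 1000 kb. These are shares of entries, and all entries fell from 38.4 per Mb at 100 to 200 kb to 17.2 per Mb beyond 1000 kb. Each of the 176 was the only summit of its interval, and their median width was 381 bp with a median of 214.5 reads. The 10 desert entries with the highest significance and a background under 30 reads were all of this kind. The strongest lay between LOC115489384 and Rab10, with 972 reads. Next came entries between Klf4, a zinc finger factor of pluripotent cells, and Actl7b, with 874 reads and 55.0-fold, and between Tusc1 and Caap1, with 822 reads and 54.0-fold. A background of 30 reads or more was found for 129 desert entries in 34 intervals, and 2 of these entries were among the 176. The highest was an entry between Lrrc4c, a synaptic adhesion gene, and Iftap, with 12165 reads over a background of 829 reads. A second summit of that interval had 11953 reads, and an entry between Flrt2 and Galc had 3458 reads and 35.6-fold over a background of 96.2 reads. Whether these entries lie in repeats or in copies of other sequence was not tested.

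**Figure D2:**
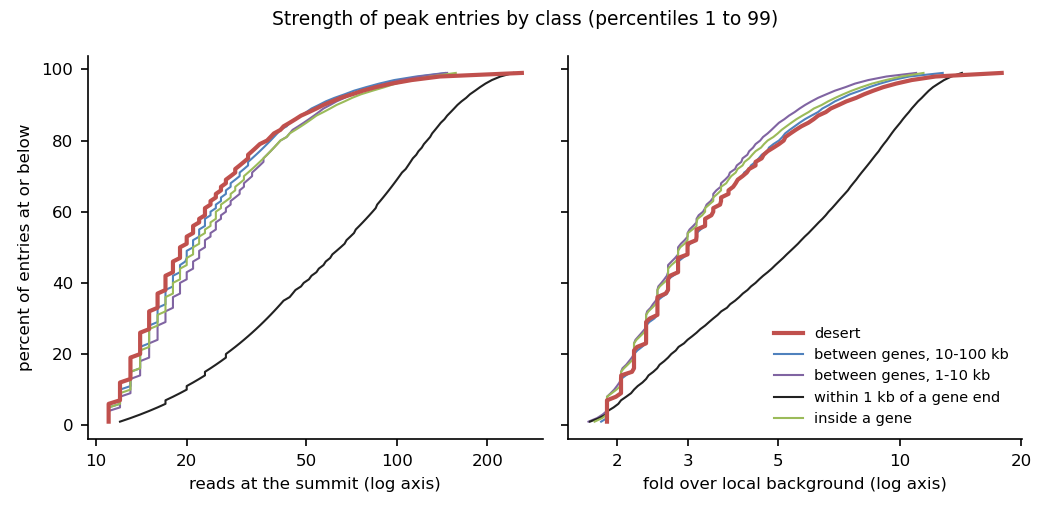
Percent of entries at or below each value (y axis), for reads at the summit (left, log axis) and fold over local background (right, log axis), drawn from percentiles 1 to 99 of each class; red is deserts. The desert median is 19 reads and 2.98-fold, against 65 reads and 5.49-fold within 1 kb of a gene end, and the red curve reaches 17.9-fold at percentile 99, against 12.8-fold at 10 to 100 kb from a gene.

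Of the 10 most significant desert entries below 20-fold, 8 lay in intervals of 899 bp or more, beside genes of several kinds. The first, between Ptprd, a synaptic phosphatase gene, and Tyrp1, was one of the narrow ones, with 307 reads over 166 bp. One in the Adgrl2-Adgrl4 desert, 473 kb from Adgrl2, had 252 reads and 15.1-fold over 899 bp. One in the Zeb2-Acvr2a desert, 275 kb from Acvr2a, had 290 reads and 11.9-fold over 1008 bp. Another, between Sim1, a factor of neuroendocrine and interneuron development, and Lilr4b, had 252 reads and 14.1-fold over 1079 bp. The entries farthest from any gene differed in strength. The farthest, 2256 kb from a gene between Celf4 and Pik3c3, had 59 reads and 9.43-fold, and the next, 2224 kb away between Pcdh20 and Pcdh9, had 19 reads and 3.14-fold.

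Entries were spread over most deserts, and long deserts held more. The median desert held 8 entries (quartiles 2 and 20), and 194 of 1376 held none (14.1%). None of the 394 deserts of 500 kb or more was empty. Counts followed length, with a Spearman correlation of 0.849 between entries and sequence over the 1376 deserts, given as a description. The 191 richest deserts held 50% of all ranked entries, the 83 with 50 or more entries held 29.3%, and the 10 richest held 5.75%. Over deserts the density had a median of 28.8 entries per Mb (quartiles 13.3 and 52.3). Chromosomes differed less than deserts did: density was highest on chromosome 13, at 41.8 entries per Mb, and lowest on chromosome 15, at 23.0.

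**Figure D3:**
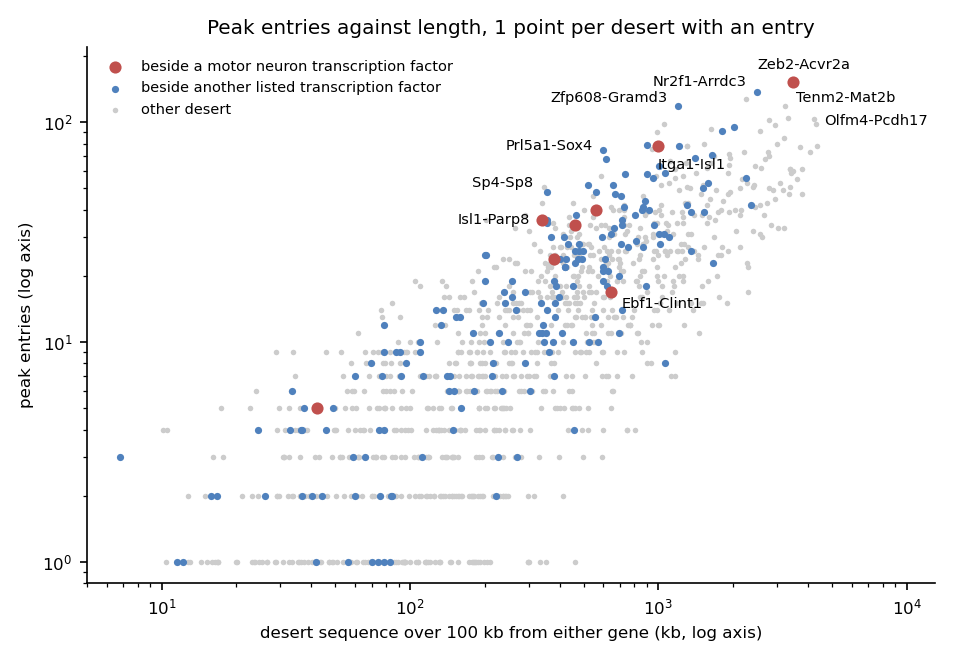
Peak entries (y axis, log) against desert sequence in kb (x axis, log), 1 point per desert with an entry; red points flank a motor neuron transcription factor and blue points another listed transcription factor. Zeb2-Acvr2a, with 153 entries, is the highest point, and Ebf1-Clint1, with 17, lies lowest of the red points among deserts of 500 kb or more.

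The deserts with most entries flanked developmental transcription factors and genes of cell adhesion and axon guidance. The richest was Zeb2-Acvr2a on chromosome 2, beside Zeb2, a zinc finger homeobox repressor of neural development, and Acvr2a, an activin receptor, with 153 entries in 3497 kb, or 43.8 per Mb (exact Poisson interval 37.1 to 51.3). Nr2f1-Arrdc3, beside the orphan nuclear receptor Nr2f1, held 137 entries at 55.1 per Mb, and 9 of them had 100 reads or more. Adgrl2-Adgrl4, between a latrophilin and an adhesion receptor of blood vessels, held 128 at 56.9 per Mb. Zfp608-Gramd3, beside a zinc finger gene, held 119 at 99.6 per Mb, and Tenm2-Mat2b, beside a teneurin, 118 at 36.4 per Mb. The Zfp608 desert had about as many entries as the Tenm2 desert in 1195 kb, against 3242 kb. Slc10a2-Efnb2, beside the gene of an ephrin that guides axons and vessels, held 105 entries, and Olfm4-Pcdh17, beside a protocadherin gene, 104.

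Within these deserts the entries lay unevenly. In Zeb2-Acvr2a the densest 100 kb held 19 entries and was centred 374 kb from Acvr2a and 3322 kb from Zeb2. In Nr2f1-Arrdc3 the densest 100 kb held 15 entries, 428 kb from Nr2f1, and the strongest entry, with 187 reads and 12.6-fold, lay 229 kb from that gene, in an interval just downstream of the start of Gm31946. In Slc10a2-Efnb2 the densest 100 kb held 13 entries, 158 kb from Efnb2, and 62 entries lay nearer to Efnb2, against 43 nearer to Slc10a2. In Got2-Cdh8, 67 of 97 entries lay nearer to Got2, a mitochondrial transaminase gene, than to Cdh8, a cadherin gene of neurons. Olfm4-Pcdh17 had 71 of its 104 entries nearer to Olfm4.

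The other 8 of the 15 richest held 91 to 102 entries each. Gm15501-Tenm4, beside another teneurin, held 102, and 70.6% of them had a q-value below 0.05. Camk1g-Plxna2, beside a semaphorin receptor gene, held 98 at 93.4 per Mb, and Celf4-Pik3c3, beside an RNA-binding protein gene of neurons, also held 98 but at 22.7 per Mb. Got2-Cdh8 held 97. Bcl11a-Fancl, beside a zinc finger factor of neurons and blood, held 95, and its strongest entry below 20-fold, with 146 reads and 12.4-fold, covered the start of 5730522E02Rik, 177 kb from Fancl. Ttll7-Adgrl2 held 93. Trim52-Slitrk1, beside a gene of a synaptic membrane protein, held 91 with a median of 15 reads, the lowest median of the 15, and Pou3f2-Mms22l, beside a POU homeobox factor of neurons, held 91 with a median of 25 reads, the highest. Of these 15 deserts, 5 flanked a gene of a transcription factor list (14.7% of all deserts did) and 9 an adhesion or guidance gene (9.23% of all deserts did). All 15 had 500 kb or more, and of the 394 deserts of that length 68 and 76 were so flanked. Deserts beside adhesion and guidance genes were long, with a median of 719 kb, against 221 kb over all deserts.

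**Figure D4:**
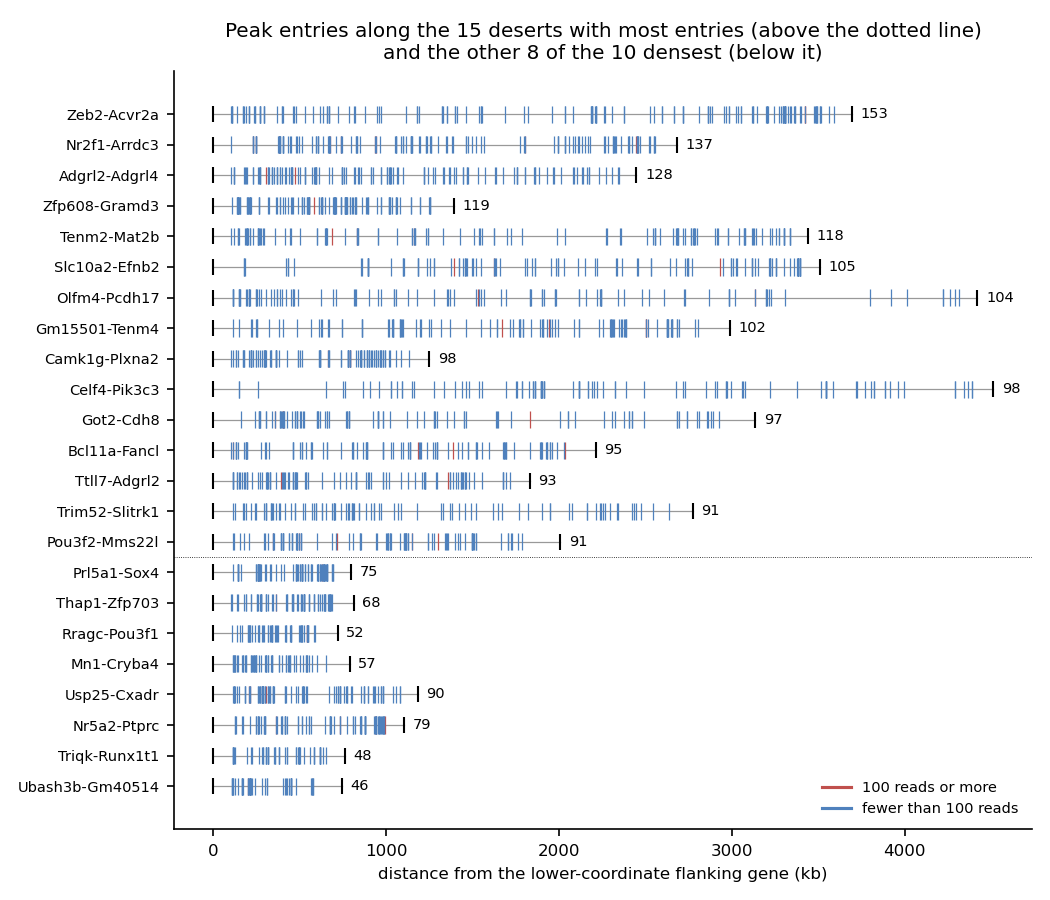
Position of each peak entry (ticks) in kb from the lower-coordinate flanking gene (x axis), for the 15 deserts with most entries and, below the dotted line, the other 8 of the 10 densest; black end marks are the flanking genes, numbers are entries, and red ticks have 100 reads or more. No tick can lie within 100 kb of an end mark; Zfp608-Gramd3 carries 119 entries in 1195 kb, against 104 in 4220.4 kb in Olfm4-Pcdh17.

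Ranked by density, the richest deserts were shorter and more often beside transcription factors. Among deserts of 500 kb or more the median was 25.8 entries per Mb (quartiles 17.3 and 39.2). Prl5a1-Sox4, beside Sox4, a factor of newly formed neurons, led with 75 entries in 597 kb, or 125.6 per Mb (exact Poisson interval 98.8 to 157). Its densest 100 kb held 25 entries centred 146 kb from Sox4. Thap1-Zfp703 followed at 110.9 per Mb, and its 68 entries had their densest 100 kb 305 kb from Zfp703, a zinc finger corepressor gene. Rragc-Pou3f1, beside a POU homeobox factor, held 52 entries at 99.9 per Mb. Zfp608-Gramd3 held 99.6 per Mb, Mn1-Cryba4 96.7, Camk1g-Plxna2 93.4, Usp25-Cxadr 91.4, Nr5a2-Ptprc 87.5, Triqk-Runx1t1 85.5 and Ubash3b-Gm40514 84.5. The Poisson intervals of all 10 overlap, so their order is not resolved by the counts. Transcription factor lists flanked 6 of the 10 densest deserts and adhesion or guidance genes 1. Of the 394 deserts of 500 kb or more, from which these 10 came, 68 and 76 were so flanked. The Ptprc gene, which encodes the leukocyte protein CD45, had no entry within 1 kb of its ends, and neither had Nr5a2, a nuclear receptor gene.

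Shorter deserts reached higher densities. Among the 328 deserts of 200 to 500 kb, a range chosen after the values were seen, the median was 35.7 entries per Mb. Sp4-Sp8, between genes of zinc finger factors of which Sp8 acts in limb and neural development, held 51 entries at 147.9 per Mb, with 23 in the densest 100 kb. Cyria-Mycn, beside the proto-oncogene Mycn of progenitor cells, held 48 at 135.2 per Mb, Dusp6-Csl, beside a phosphatase gene that responds to FGF signalling, 38 at 130.9 per Mb, and Slc24a2-Mllt3 43 at 126.7 per Mb. The highest, 9530057J20Rik-Gm15319, held 36 entries at 177.9 per Mb between predicted genes of chromosome 8. Only 55.6% of its entries had a q-value below 0.05, against 88.2% in Sp4-Sp8, and its strongest summit had 355 reads over a background of 29.9 reads. The exact Poisson interval was 125 to 246 for this desert and 110 to 194 for Sp4-Sp8. The intervals of all deserts named here overlap that of Prl5a1-Sox4, 98.8 to 157, so their higher values are not resolved by the counts.

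Deserts beside motor neuron transcription factors were denser than most. The list held Isl1, Isl2, Lhx3, Lhx4, Mnx1, Ebf1, Ebf2, Ebf3, Onecut1, Onecut2, Onecut3, Nkx6-1, Nkx6-2, Zeb2 and Myt1l. Of these 15 genes, 7 flanked a desert. The 8 deserts held 387 entries with a median of 72.7 per Mb, against 28.8 over all deserts. Pooled over their sequence the densities were 55.9 and 30.9 per Mb. Zeb2-Acvr2a, described above, held 153 of the 387 entries and 3497 kb of the 6.92 Mb in these 8 deserts. A density of 60 per Mb or more, a limit chosen after the values were seen, was reached by 6 of these 8 deserts, against 19.2% of all deserts. The list and its direction were known from earlier work on these data, so the counts describe these deserts and are no independent support. The 4 deserts of 500 kb or more among them had 78.3, 71.4, 43.8 and 26.4 entries per Mb.

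Isl1, a LIM homeodomain factor required for motor neuron formation, had a desert on either side. Itga1-Isl1 held 78 entries in 996 kb, or 78.3 per Mb (exact Poisson interval 61.9 to 97.7), and Isl1-Parp8 held 36 in 341 kb, or 105.5 per Mb (73.9 to 146). A run of 9 intervals in Itga1-Isl1, each within 10 kb of the next, began 593 kb from Isl1 and spanned 35.9 kb. The strongest entry of that desert, 611 kb from Isl1, lay within the run and had 162 reads and 13.1-fold. On the other side the strongest entry lay 205 kb from Isl1, with 128 reads and 9.08-fold. Gene ends of Isl1 had entries of up to 244 reads.

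Gpat3-Nkx6-1, beside the homeodomain gene Nkx6-1 of ventral progenitors and motor neurons, held 40 entries at 71.4 per Mb, and 27 of them lay nearer to Nkx6-1 than to Gpat3. Eipr1-Myt1l, beside Myt1l, a zinc finger repressor of non-neuronal genes, held 34 at 73.9 per Mb, with a strongest entry of 163 reads 195 kb from Myt1l. Wdr72-Onecut1 held 24 at 63.4 per Mb, none with 100 reads. Ebf1-Clint1 was the sparsest of the set, with 17 entries in 644 kb, or 26.4 per Mb (15.4 to 42.3). Ebf2-Cdca2 held 5 entries, with a median of 43 reads, in only 3 intervals over 42.2 kb. That was 118.4 per Mb, with an exact Poisson interval of 38.4 to 276. Ebf1 and Ebf2 are helix-loop-helix factors of migrating and differentiating neurons. The gene ends of 14 of the 15 factors carried an entry, against 67.5% of all protein-coding genes. Mnx1 had the most reads (406, at 7.42-fold) and Isl2 had no entry. The Hb9::GFP line carries regulatory sequence of Mnx1, and whether reads from it were placed at Mnx1 was not tested. Entries also lay at the ends of 8 of 13 blood and endothelial regulators, with at most 128 reads, at Spi1. None lay at Erg, Etv2, Pecam1, Runx1 or Tek. The part of other cell types in the desert entries was not tested.

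Deserts beside other transcription factors also had medians above that of all deserts, and those beside adhesion genes and channels had medians below it. Such an order turned under other bounds: adhesion and guidance genes had 31.7 per Mb at a distance of 50 kb, against 29.9 over all deserts, and 23.9 with genes of all types as bounds, against 17.2, where helix-loop-helix genes had 0. The lists overlap with the motor neuron list and with each other. Deserts beside Sox and forkhead genes had a median of 58.4 entries per Mb (30 deserts), beside homeobox genes 49.8 (55), beside other developmental transcription factors 39.9 (101) and beside basic helix-loop-helix genes 35.7 (21). Over all 202 deserts beside a gene of any transcription factor list the median was 47.4 per Mb, against 28.8 over all 1376. Adhesion and guidance genes had 26.5 (127 deserts), secreted signals 29.0 (42), and channels and transmitter receptors 21.3 (83). The adhesion deserts were long, with a median of 719 kb, and all deserts of 500 kb or more had a median of 25.8 per Mb. The part of length in these medians was not tested. Beside sensory receptor clusters 13 of 21 deserts were empty and the median was 0, but these deserts were short, with a median of 80.8 kb, and pooled over their sequence they held 21.6 per Mb, against 30.9 over all deserts. Of 3 deserts beside blood and endothelial regulators, Cdh11-Cdh5 held 67 entries in 1116 kb and Runx1-Setd4 held 13 in 557 kb. Kit-Kdr, with 76.1 kb, held none. Pooled over their sequence these 3 held 45.7 per Mb, and their median was 23.3.

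**Figure D5:**
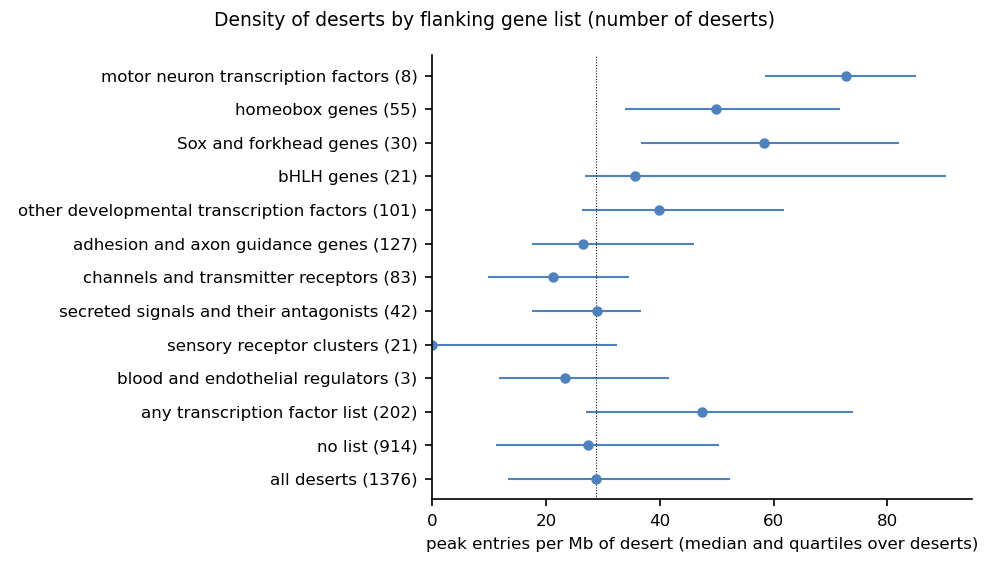
Median peak entries per Mb of desert (points) with quartiles (lines) over the deserts that flank a gene of each list; the number of deserts stands in brackets, and the dotted line is the median of all deserts, 28.8 per Mb. Deserts beside motor neuron transcription factors have a median of 72.7 per Mb and those beside sensory receptor clusters 0, where the pooled density is 21.6 per Mb.

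Single deserts of these lists differed widely in density. Among Sox genes, Sox2-Atp11b held 58 entries at 64.3 per Mb beside Sox2, a factor of neural progenitors, and Cmpk2-Sox11 held 52 at 79.5 per Mb beside Sox11, a factor of young neurons. Myc-Gsdmc held 53 at 33.4 per Mb, and Mc2r-Tcf4, beside the partner of many neuronal helix-loop-helix factors, 34 at 47.6 per Mb. Among channels and receptors, Kcna4-Mettl15 held 62 entries, Kcnt2-Cdc73 50 and Hace1-Grik2 49, the last 2 at 17.9 and 15.4 per Mb. Among secreted signals, Fstl5-Rapgef2 held 40, Fgf9-1700129C05Rik 28 and Fermt1-Bmp2 27, the last at 66.5 per Mb beside a bone morphogenetic protein gene. The sensory receptor deserts with most entries, Atpsckmt-Tas2r119, Olfr1505-Tle4 and Rnd3-Tas2r134, held 14, 10 and 10.

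Of 408 genes with a desert on either side, the latrophilin gene Adgrl2 had the most entries. It had 221 entries, 128 on the side of Adgrl4 and 93 on the side of Ttll7. Cdh8 had 177 entries, 80 on the higher-coordinate side and 97 on the other, and Zfp608 also had 177, with 119 and 58. Pcdh17 had 168, Slitrk1 156, Cdh11 147, Lrrc4c 147, Flrt2 135, Epha7 123 and Pcdh7 121. This ranking was added after the values were seen, and it favours genes between long deserts.

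The sparsest of the 50 longest deserts held immunoglobulin gene segments. Adam6a-Zfp386 held 17 entries in 2301 kb, or 7.39 per Mb (exact Poisson interval 4.30 to 11.8), and 111 immunoglobulin V gene segments of the heavy chain locus. V segments are joined to other segments in B cells to make antibody genes, and the annotation gives them a type of their own, so they did not count as protein-coding genes. Next in the ranking were Lingo2-1700009N14Rik at 9.57 per Mb, Kcnv1-Csmd3 at 10.2 and 4931417E11Rik-Ctnna2 at 10.3. These 3 deserts lie beside neuronal genes and held 22, 23 and 33 entries. The choice of 50 deserts as the longest was made after the values were seen.

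Desert entries often came in small groups. The median distance between neighbouring intervals of a desert was 18.6 kb, and 35.0% of neighbours lay within 10 kb. Intervals without a neighbour within 10 kb made up 47.0% of the 16605 intervals, and 6.51% belonged to runs of 5 or more. The 2 longest runs had 14 intervals. One, in Ythdf3-Cypt12, spanned 49.1 kb and ended 114 kb from Cypt12, and the other lay in 9530057J20Rik-Gm15319. A run of 10 intervals over 43.4 kb lay in Prl5a1-Sox4, 137 kb from Sox4. By fixed windows of 100 kb the fullest were in 9530057J20Rik-Gm15319 with 31 entries, Usp25-Cxadr with 28, Prl5a1-Sox4 with 25, and Irx3-Irx5 with 24, between Iroquois homeobox genes of neural patterning. Sp4-Sp8 and Zfp608-Gramd3 had windows of 23 entries. In deserts of 500 kb or more, 29.8% of 13533 entries lay in the central segment when each desert was cut into 3 equal parts.

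A microRNA gene lay within the span of one of the 2 longest runs. In Ythdf3-Cypt12, 12 entries lay within 10 kb of Mir124a-2, the gene of a microRNA abundant in neurons, and the nearest summit was 254 bp away, with 51 reads and 2.59-fold. In all, 113 microRNA genes lay in 52 deserts, 39 of them in Rtl1-Dio3, an imprinted cluster. A summit lay within 1 kb of 8 of the 113 and within 10 kb of 41. For comparison, 4.95% of desert sequence lay within 1 kb of a summit and 35.3% within 10 kb. Genes of a cluster share their nearest summit and are not independent. RefSeq sequences were found for 106 of the 113.

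The median microRNA gene lay 13.7 kb from the nearest summit, and the genes described next were the nearest. At Mir137, the source of miR-137-3p above, a microRNA of neuronal differentiation, the summit lay inside the gene, in Snx7-Dpyd, with 60 reads and 5.01-fold. In Gm51483-Ndn, Mir344 had a summit at 42 bp with 20 reads, Mir344-2 at 55 bp with 61 reads and 9.74-fold, and Mir344c at 66 bp with 42 reads and 6.75-fold. The mature sequences above are near-identical, and whether reads were placed at 1 copy alone was not tested. That desert was otherwise sparse, with 16 entries at 15.5 per Mb. Mir3072, hosted by the lncRNA Mirg in Rtl1-Dio3, had a summit at 110 bp with 32 reads and 3.42-fold.

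Paralogous microRNA clusters lay in 2 of the 10 densest deserts. Usp25-Cxadr holds Mir99a, Mirlet7c-1 and Mir125b-2, and Ubash3b-Gm40514 holds Mir100, Mirlet7a-2 and Mir125b-1. The nearest summits were at 2051 bp from Mir99a, with 15 reads, at 1902 bp from Mir125b-2, with 72 reads and 7.88-fold, and at 1082 bp from Mir125b-1, with 15 reads. Mir100 had none nearer than 34480 bp. Mir99ahg, a lncRNA gene in the desert of the first cluster, began under an interval with 139 reads and 9.60-fold, within 100 kb of the fullest window of that desert. Mir205, in Camk1g-Plxna2, had a summit at 3362 bp with 24 reads. miR-205 is known from epithelia.

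Long non-coding RNA genes held a larger share of desert entries than of desert sequence. Of 20219 ranked desert entries, 16.2% lay inside a lncRNA gene (exact binomial interval 15.7 to 16.7%), which cover 10.8% of desert sequence. Within 1 kb of a lncRNA gene end lay 3.83% of entries, in 1.30% of desert sequence. Pseudogenes held 0.742% of entries in 0.939% of the sequence. Genes of any type in the table other than protein-coding held 17.4% of desert entries in 12.8% of the sequence. A desert here is thus free of protein-coding genes and not of genes. Of 2016 annotated lncRNA starts in deserts, 230 (11.4%, exact binomial interval 10.1 to 12.9%) had an interval over their 300-base window. The same held for 25.5% of 9295 lncRNA starts outside deserts and 63.3% of 20084 protein-coding starts. The 2016 desert starts belong to 1703 genes, and the exact interval treats starts of 1 gene as independent. A window of 300 bases placed anywhere in a desert touches an interval in 1.81% of positions.

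The desert lncRNA starts with the highest significance, picked from the 230 with an interval, are given next. They do not describe the typical start. Gm26901, between Pcmtd1 and Sntg1, had 263 reads and 11.7-fold, Gm31946 had 187 reads and 12.6-fold, Gm31912, between Tcf7l2 and Habp2, 152 reads, 5730522E02Rik 146 reads and 12.4-fold, and Gm32123, between Rps24 and Zmiz1, 150 reads and 10.8-fold. The interval at Gm31946 began at chr13:78427011, downstream of the start at 78426985, and extended to 78428722, so it overlapped only the end of the window printed above. Gm52623 and Gm52725 had 70 and 67 reads. The start of 5730522E02Rik had 33 CG pairs and 65.3% G and C, that of Mir99ahg 8 and 53.7%, and that of Gm31946 2 and 38.3%. Over the 230 open desert starts the median was 49.3% G and C with 5 CG pairs, against 44.3% and 2 in the 1786 other desert starts. Open lncRNA starts outside deserts had 59.7% and 16, and open protein-coding starts 62.3% and 22.

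Letters of known motifs were searched on both strands in these windows, and each share counts windows with at least 1 match, which is a description and not a binding site. The 230 open desert starts belong to 204 genes, so overlapping windows of 1 gene can count more than once in a share. TAATTA was found in 10.9% of open desert lncRNA starts, 9.41% of the other desert starts, 3.67% of open lncRNA starts outside deserts and 5.27% of all 31396 starts. The Sox motif ACAANGG was found in 24.3%, 17.1%, 12.5% and 13.5% of the same sets, and TGANTCA in 6.09%, 10.9%, 4.97% and 7.84%. CAGATG was in 20.9% of open desert starts, 22.8% of the other desert starts and 17.2% of all starts. Base composition, given above, differed between these sets, and its part in the shares was not tested. TTAATTAA, which contains TAATTA, was in 0.870% of open desert starts and 0.627% of all starts. CANNTG, which contains CAGATG, was in 77.4% and 72.2%. The known Ebf palindrome was in 0.870% and 0.920%, the Onecut motif ATCGAT in 0.870% and 0.917%, and the CRE motif TGACGTCA in 0.870% and 1.83%. The known core motif of the CTCF protein was in none of the 230 open desert starts and in 0.207% of all starts. Among the starts printed above, Gm52725 held TAATTA at 2 places and CAGATG at 1, and Gm52623 held CAGATG at 2 places, on either strand, and TGANTCA at 1.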

How the data were processed

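Chromatin of FACS-sorted GFP-positive cells was profiled by ATAC-seq in 2 replicates, and 1 peak list pooled over both was analysed. Tools in the submitters' processing notes are MACS2 2.2.7.1, SAMtools 1.7.2, BWA 0.7.1.7, cutadapt 0.6.2 and Trim Galore, with mm10 as build. Not given in the sources used here are tool roles and settings, the treatment of duplicate reads and any shift for the Tn5 cut. The fold of each entry is a ratio of summit reads to local background, deposited by the authors. Significance is the −log10 of a p-value and of a q-value, deposited by the authors. The score deposited by the authors was not used. The other deposited columns are interval and summit positions, which are 0-based in the file and given here counted from 1.

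Reads (the pileup) and background were solved from the ratio (reads + 1)/(background + 1) and the Poisson tail. In 99.96% of entries the solved reads were whole within 0.01, with a lowest value of 11 reads, and in simulated data 4998 of 5000 were recovered within 0.01. The depth of either library is not known. A site that is not listed may still be open. Intervals cover counting error only and treat entries as independent, although up to 18 share an interval.

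Genes, types and sequences came from RefSeq (GRCm38.p6), with 20661 protein-coding genes on chromosomes 1 to 19. Of these, 105 carried coordinates below 3 Mb, where no entry lies (the first begins at base 3000010), so stretches that begin there were not ranked, a choice made after the data were seen. Planned sequence composition and motifs at summits were not run, as no genome was used. Motifs were searched in RefSeq windows at gene starts instead.

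Named were the 15 deserts with most entries, the 10 densest with at least 500 kb and 5 entries, the 5 sparsest of the longest (1 of them is not reported here), the strongest and farthest entries, every desert beside a motor neuron transcription factor and the 3 richest beside each other list. The members and lists were chosen with earlier results of these data known. Symbol stems of the 10 gene lists were tightened after the files were read, to remove unrelated genes. The microRNA and lncRNA start details, entries under 20-fold and genes with 2 deserts were added after values were seen. Alternatives were q below 0.05, the upper 50% by −log10 q, 1 entry per interval, low background, distances of 50 and 200 kb, predicted genes dropped, and genes of all types as bounds. Python 3.11.15, numpy 2.4.6, pandas 2.3.3 and scipy 1.17.1 were used.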

Additional observations from a re-analysis of the deposited data

How the results depend on the processing

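Of 189 recomputed values 151 stayed within 1.5 times (medians, counts and densities) or within the exact interval (shares), and 38 moved. With q below 0.05 the desert share was 14.7%. Of the upper 50% of entries by −log10 q, 8893 were desert entries (13.2%), at 13.4 per Mb, 100% with q below 0.05, with medians of 34 reads and 4.87-fold and 78 in the richest desert. List medians were then 36.3 per Mb for motor neuron factors, 22.0 homeobox, 24.4 Sox and forkhead, 18.4 helix-loop-helix, 19.7 other factors, 10.2 adhesion, 7.93 channels, 11.1 signals and 8.97 blood, against 11.4 over all deserts. With 1 entry per interval the share was 16.5% and 77.6% had q below 0.05. At 50 kb the share was 21.1%, 79.9% had q below 0.05, the 10 richest held 4.34%, and the medians were 54.9 for blood and 31.7 for adhesion, both now above that of all deserts (29.9), with 28.6 for signals now below it. At 200 kb 12807 entries (9.53%) remained by construction, the 10 richest held 8.27%, and the sensory and blood medians were 7.81 and 40.4, the second now above that of all deserts (26.7), with 22.1 for signals below it. With predicted genes dropped the share was 16.3%, and the richest desert became Defb7-Defb33 with 193 entries, since its predicted genes no longer divide it. With genes of all types as bounds, 4292 entries (3.19%) in 181 Mb were left by construction, 76.7% had q below 0.05, the richest desert held 40 and the 10 richest 6.19%. List medians were then 0 for helix-loop-helix, 26.3 other factors, 14.1 signals, 0 blood and 23.9 adhesion, against 17.2 over all deserts, which turned helix-loop-helix and signals below it and adhesion above it; no desert lay beside a Sox or forkhead gene. The signals median (29.0 against 28.8) was also below that of all deserts with q below 0.05, in the upper 50% and with 1 entry per interval. Motor neuron, homeobox and other factor medians were above that of all deserts in each of these settings. Zeb2-Acvr2a was the richest desert except under these last 2 settings. Of the 15 richest deserts 10 to 15 stayed among the 15 under the settings other than all gene types, and 0 under that one. Of the 10 densest, 7 to 10 stayed, except for 4 at 200 kb and 0 with all gene types. Leaving out entries of 20-fold or more, or of a background of 30 reads or more, or ranking stretches from chromosome starts, moved no value; the first and last of these were chosen after seeing the data. Judged by whole intervals, 20439 entries were desert entries. No paired analysis was possible because both replicates were pooled in 1 list, and for the same reason no replicate could be left out. Depth limits the list to sites of 11 reads or more.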
